A study of Homo sapiens with 6 samples.

Results

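The genes described here drive or restrain the step from G1 into S phase of the cell cycle. They are the D-type cyclins CCND1, CCND2 and CCND3, the kinases CDK4 and CDK6, the kinase inhibitors CDKN2A, CDKN2B, CDKN2C and CDKN1B, and MTAP, the neighbour of CDKN2A. They were chosen by gene symbol with earlier values of these data in view, so their levels are given as a description with no test. All 10 symbols were found among the 25277 gene rows of the table, and 8 averaged 1 FPKM or more across the 6 libraries. CCND2 and CDKN2B fell below that filter. FPKM counts the fragments of a gene relative to the length of its transcript and the depth of the library, so levels can be compared between genes.

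The libraries came from Jeko and Rec-1, established lines derived from mantle cell lymphoma, which is a cancer of B lymphocytes. All cells carried a tet-on CRISPR/Cas9 vector and were given doxycycline for 48 h. In each line 1 control library had the empty vector, 1 library was labelled NR4A1 sgRNA 1 and 1 was labelled NR4A1 sgRNA 2, where NR4A1 is a nuclear receptor gene. The series concerns inhibition of NR4A1 together with the BTK inhibitor ibrutinib, and these libraries compare cells with and without a guide against NR4A1. The lines were stable, and no label says whether any was 1 clone. No label says that the 2 guide libraries of a line came from separate cultures, so a spread between them may be technical, and neither control had a replicate.

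D cyclins bind and activate CDK4 and CDK6, which phosphorylate the retinoblastoma protein and so release E2F transcription factors. INK4 proteins, encoded by CDKN2A, CDKN2B, CDKN2C and CDKN2D, bind these kinases and block them. CDKN2D is not a member here and is left out of the INK4 sums below. KIP1, encoded by CDKN1B, acts mainly on CDK2 bound to cyclin E and is held by cyclin D complexes. In mantle cell lymphoma a translocation usually places CCND1 under the immunoglobulin heavy-chain enhancers, and cyclin D1-negative cases commonly express CCND2 or CCND3. CDKN2A is often deleted in this lymphoma, at times together with MTAP, an enzyme of methionine salvage.

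CDKN2A has a pair of first exons, each with its own transcription start, and the table gives their transcripts as 1 value. The upstream start makes ARF, which restrains MDM2 and so protects p53, and the downstream start makes the kinase inhibitor INK4a. RefSeq windows from 250 bases before to 50 after each start are shown for CDKN2A, the gene with the widest range among the INK4 members, and for CDKN1B, the inhibitor that moved against it. Capitals mark GC boxes (GGGCGG on either strand). All windows are from build GRCh38.p14.
CDKN2A upstream start, chr9:21995275-21995574, minus strand: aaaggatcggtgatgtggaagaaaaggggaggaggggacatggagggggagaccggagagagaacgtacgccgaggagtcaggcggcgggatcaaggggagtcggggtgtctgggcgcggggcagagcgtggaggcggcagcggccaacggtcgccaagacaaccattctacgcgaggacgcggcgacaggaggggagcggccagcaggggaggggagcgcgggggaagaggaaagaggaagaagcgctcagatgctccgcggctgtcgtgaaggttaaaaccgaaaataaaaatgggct
CDKN2A downstream start, chr9:21974808-21975107, minus strand: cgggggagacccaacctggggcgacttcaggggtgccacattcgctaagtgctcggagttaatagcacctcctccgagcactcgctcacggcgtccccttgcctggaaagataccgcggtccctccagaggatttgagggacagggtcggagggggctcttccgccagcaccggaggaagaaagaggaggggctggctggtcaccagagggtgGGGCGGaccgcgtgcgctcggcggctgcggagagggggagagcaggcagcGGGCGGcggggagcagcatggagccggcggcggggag
CDKN1B, chr12:12717118-12717417, plus strand: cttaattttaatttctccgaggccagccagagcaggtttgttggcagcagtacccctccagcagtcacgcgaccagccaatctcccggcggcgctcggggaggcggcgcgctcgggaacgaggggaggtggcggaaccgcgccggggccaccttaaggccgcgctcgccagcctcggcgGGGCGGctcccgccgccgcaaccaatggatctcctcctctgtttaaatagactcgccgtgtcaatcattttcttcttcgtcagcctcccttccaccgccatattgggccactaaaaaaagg

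The window of the upstream CDKN2A start held 0 GC boxes, that of the downstream start 2 and that of CDKN1B 1. Of all 35116 windows in the RefSeq table, 45.0% held a GC box. The letters TTCCCGC, a core of E2F sites, and GTAAACA, a FOXO site, were searched on both strands and were in none of the 3 windows, against 6.55% and 3.42% of all windows. These matches describe letters in a window and show no binding.

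Before the members, the targeted gene and the likeness of the libraries were checked. In Jeko, NR4A1 was at 5.99 FPKM without a guide, 3.89 with sgRNA 1 and 4.44 with sgRNA 2. The Rec-1 values were 11.6 FPKM without a guide, 27.4 with sgRNA 1 and 12.7 with sgRNA 2. Neither library labelled Rec-1 sgRNA had less NR4A1 mRNA than that labelled Rec-1 control, and directions below rest on those labels. The mRNA level alone does not show whether NR4A1 was edited or which library carried a guide. Over 10331 protein-coding genes, Pearson correlation of log2(FPKM + 1) between the library labelled Rec-1 control and that labelled Jeko control was 0.988. Between the library labelled Rec-1 control and Rec-1 sgRNA 1 and 2 it was 0.805 and 0.812. The Jeko control was less like its own guide libraries, at 0.968 and 0.963 with Jeko sgRNA 1 and 2, than like the Rec-1 control. For 9 of the 10 members the Rec-1 control value was also nearer to the Jeko control than to either Rec-1 sgRNA library. The same held for 73.6% of all tested genes. CDKN2C was the exception. Whether this library and the Rec-1 sgRNA libraries come from the line their labels name cannot be told from these levels, so a difference from the Rec-1 control may not be one between cells of 1 line. For this reason members are also compared between the sgRNA libraries of the 2 lines.

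The 7 B-cell markers reported here were at 1 FPKM or more in all 6 libraries, among them PAX5 and CD79A, and their sum lay between 597 and 1117 FPKM. Single markers still differed. CD37 lay from 2.78 to 7.98 FPKM over the 3 Jeko libraries and the Rec-1 control, against 104 and 67.3 in Rec-1 sgRNA 1 and 2. MS4A1 was 26.4 FPKM in Rec-1 sgRNA 1 and from 67.8 to 132 FPKM elsewhere. Of the mantle cell lymphoma markers, SOX11 ranged from 7.11 to 11.1 FPKM over the 3 Jeko libraries and the Rec-1 control, against 3.60 and 2.45 for the Rec-1 guides, and CD5 was at most 0.0785 FPKM anywhere. The 4 T-cell markers in the table summed to between 2.11 and 5.43 FPKM in the 4 libraries labelled Jeko or Rec-1 control and to 102 and 119.8 FPKM in Rec-1 sgRNA 1 and 2. This came from CD3D, CD3G and CD3E, while CD2 was at most 0.0291 FPKM in all 6. Myeloid markers summed to at most 1.07 FPKM in those 4 libraries and to 11.4 and 16.4 with the Rec-1 guides, mostly CD33, with MPO listed at 0 in all 6. Plasma cell markers summed to between 180.3 and 254 FPKM in the 4 libraries and to 57.4 and 56.1 in Rec-1 sgRNA. The 4 epithelial markers summed to at most 0.862 FPKM in any library. The 4 fibroblast markers summed to between 1.21 and 3.37 FPKM in the 4 libraries and to 0 and 0.0393 in Rec-1 sgRNA. All of this was COL1A1, with COL1A2, DCN and LUM listed at 0 in all 6. The CD37, SOX11, T-cell, myeloid, plasma cell and COL1A1 levels moved with the member levels below, and their part in them was not tested.

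CCND1 supplied nearly all D cyclin transcript in the Jeko libraries and the Rec-1 control, and CCND3 nearly all of it in the Rec-1 sgRNA libraries. CCND1, which encodes cyclin D1 (chromosome 11, 69455924 to 69469242, plus strand, GRCh37), was 598 FPKM in the Jeko control, 815 in Jeko sgRNA 1 and 442 in Jeko sgRNA 2. The Rec-1 control had 495 FPKM, inside the range of the 3 Jeko libraries. Rec-1 sgRNA 1 and 2 had 0.696 and 0.592 FPKM. ORAOV1, described below, overlaps the last 1399 bases of CCND1 on the other strand. By rank among protein-coding genes, CCND1 stood between 101 and 156 from the top in the 3 Jeko libraries and the Rec-1 control, called the first 4 libraries below, and at 10308 and 10534 in Rec-1 sgRNA 1 and 2. The mean level was 628 ± 264 FPKM (SD, n = 2) in Jeko sgRNA and 0.644 ± 0.0732 FPKM (SD, n = 2) in Rec-1 sgRNA, a ratio of 976. In such bulk samples, fewer cells with a transcript and less of it per cell cannot be told apart. Within Jeko the guides lay on either side of the control, with log2(FPKM + 1) differences of 0.45 for sgRNA 1 and −0.44 for sgRNA 2.

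CCND3, which encodes cyclin D3 and is the D cyclin of normal germinal centre B cells (chromosome 6, 41902672 to 42018095, minus strand), went the other way. The Jeko control had 16.2 FPKM, with 12.8 in Jeko sgRNA 1, 10.5 in Jeko sgRNA 2 and 14.0 in the Rec-1 control. Rec-1 sgRNA 1 and 2 stood at 70.6 and 80.2 FPKM. The Rec-1 sgRNA mean of 75.4 ± 6.84 FPKM (SD, n = 2) was 6.46 times the Jeko sgRNA mean of 11.7 ± 1.65 FPKM (SD, n = 2), and the groups did not overlap. Both Jeko guides were below their control, by 0.31 and 0.58 on the log2 scale.

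CCND2, which encodes cyclin D2 (chromosome 12, 4378937 to 4414519, plus strand), was close to 0 everywhere. The Jeko control had 0.0184 FPKM, with 0.00701 and 0.0111 with the Jeko guides and 0.0389 in the Rec-1 control. Both Rec-1 sgRNA libraries list it at 0. Corrected for the libraries' relative depth, the 4 values above 0 stood within 1% of 3, 1, 2 and 7 times the smallest, as whole fragments would. No D cyclin other than CCND1 or CCND3 therefore reached 1 FPKM in any library.

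**Figure D1:**
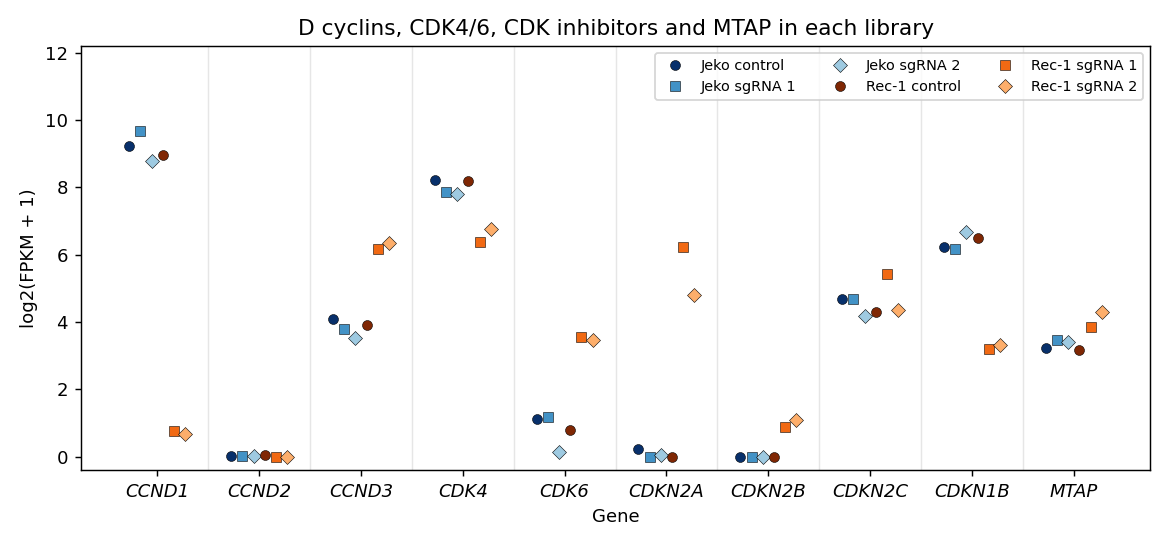
Levels of the 10 genes as log2(FPKM + 1) on a linear axis, with 1 point for each of the 6 libraries (circles, controls; squares, sgRNA 1; diamonds, sgRNA 2; blue, Jeko; orange and brown, Rec-1). The brown Rec-1 control points lie with the blue Jeko points, and the orange Rec-1 sgRNA points stand apart at CCND1, CCND3, CDK6, CDKN2A and CDKN1B.

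Shares within a library do not depend on how the library was scaled. CCND1 made up 97.4% of the summed D cyclin FPKM in the Jeko control, 98.4% in Jeko sgRNA 1, 97.7% in Jeko sgRNA 2 and 97.2% in the Rec-1 control. In Rec-1 sgRNA 1 and 2 its share was 0.976% and 0.733%, and CCND3 held 99.02% and 99.3%. The total also differed. Summed D cyclin level was between 452 and 827 FPKM in the first 4 libraries and was 71.3 and 80.8 FPKM in Rec-1 sgRNA 1 and 2, so the higher CCND3 level did not make up the CCND1 level in FPKM.

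The partner kinases also differed between the sgRNA libraries of the lines, with less CDK4 and more CDK6 in Rec-1 sgRNA. CDK4 (chromosome 12, 58141510 to 58149796, minus strand) was 296 FPKM in the Jeko control, 229.7 and 221 in Jeko sgRNA 1 and 2 and 294 in the Rec-1 control. It was 82.9 FPKM in Rec-1 sgRNA 1 and 108 in Rec-1 sgRNA 2. TSPAN31 overlaps 2493 bases of CDK4 on the other strand. The Jeko sgRNA mean of 225 ± 6.09 FPKM (SD, n = 2) was 2.36 times the Rec-1 sgRNA mean of 95.6 ± 17.9 FPKM (SD, n = 2). Both Jeko guides were also below their control, with a mean log2 difference of −0.39. That difference became −0.26 once the trend with transcript length was removed from each library's deviations from the gene means over all 6 libraries. CDK4 stayed the more abundant kinase in all 6 libraries.

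CDK6 (chromosome 7, 92234235 to 92465887, minus strand) was 1.19 FPKM in the Jeko control, 1.29 in Jeko sgRNA 1 and 0.745 in the Rec-1 control. Jeko sgRNA 2 stood below these at 0.0922 FPKM, so the guides of Jeko differed 13.9-fold and their mean of 0.689 ± 0.844 FPKM (SD, n = 2) describes neither. CDK6 was 10.7 and 10.1 FPKM in Rec-1 sgRNA 1 and 2, above all other libraries. Its share of the summed CDK4 and CDK6 level was between 0.0417% and 0.557% in the first 4 libraries and was 11.5% and 8.54% in Rec-1 sgRNA 1 and 2. CDK6 was the 1 member of 10 that differed at least 2-fold on the log2(FPKM + 1) scale between the Jeko guides, where 4.68% of tested genes did. Per unit of summed CDK4 and CDK6 there were between 1.73 and 3.58 units of D cyclin in the first 4 libraries and 0.761 and 0.683 in Rec-1 sgRNA 1 and 2.

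**Figure D2:**
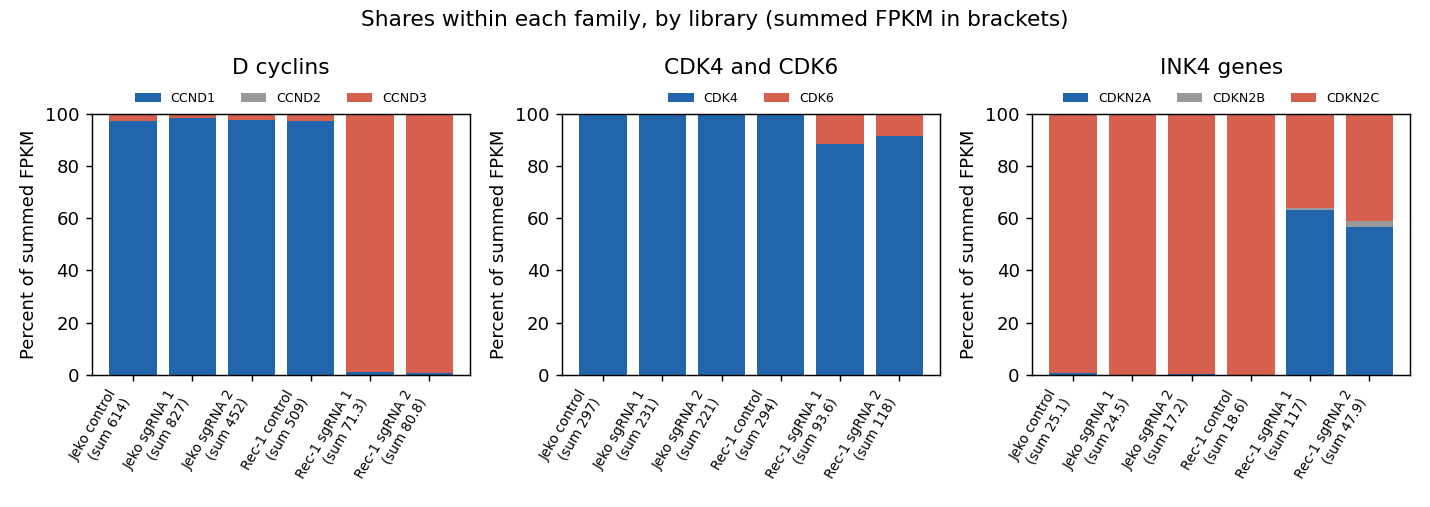
Shares of each gene in the summed FPKM of its family's members, in percent from 0 to 100, for each library. The sum is in brackets under each bar, and the INK4 sum leaves out CDKN2D, which is not a member. CCND3 takes 99.02% and 99.3% of D cyclin in Rec-1 sgRNA 1 and 2 against 2.76% or less in the other 4 libraries, and CDKN2A takes 63.0% and 56.6% of the INK4 sum there against 0.649% or less.

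Of the INK4 genes, CDKN2A and CDKN2B were near or at 0 in the Jeko libraries and the Rec-1 control and were transcribed in Rec-1 sgRNA. CDKN2A (chromosome 9, 21967751 to 21995300, minus strand) was 0.163 FPKM in the Jeko control, 0.0370 in Jeko sgRNA 2 and listed at 0 in Jeko sgRNA 1 and in Rec-1 control. The 2 values above 0 stood in a ratio within 1% of 4 to 1 after correction for relative depth, as 4 fragments and 1 would. With the Rec-1 guides CDKN2A was 73.7 and 27.2 FPKM, and it ranked 935 and 2647 among protein-coding genes. No fold is given, because the lower group rests on so few fragments. The level does not say how much came from the ARF start and how much from the INK4a start, both shown above.

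CDKN2B, which encodes INK4b (chromosome 9, 22002902 to 22009304, minus strand), was listed at 0 in all 3 Jeko libraries and the Rec-1 control. Rec-1 sgRNA 1 and 2 had 0.850 and 1.12 FPKM. All of CDKN2B and 1163 bases of CDKN2A lie under CDKN2B-AS1, a noncoding gene on the other strand, and whether counting used strand is not given in the sources used here, so low values of these genes could be shared. CDKN2B-AS1 was between 0.766 and 0.970 FPKM in the first 4 libraries and 1.62 and 1.35 in Rec-1 sgRNA 1 and 2.

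CDKN2C, which encodes INK4c (chromosome 1, 51426417 to 51440306, plus strand), was present in all 6 libraries. The Jeko control had 25.0 FPKM, with 24.5 and 17.2 in Jeko sgRNA 1 and 2, 18.6 in the Rec-1 control, 42.4 in Rec-1 sgRNA 1 and 19.7 in Rec-1 sgRNA 2. Rec-1 sgRNA 2 fell inside the range of the Jeko libraries, so CDKN2C was the member whose sgRNA groups overlapped. It was all of the INK4 sum in Jeko sgRNA 1 and the Rec-1 control and at least 99.4% of it in the other 2 Jeko libraries, but 36.2% and 41.0% in Rec-1 sgRNA 1 and 2. CDKN2A and CDKN2C were the 2 members of 10 that differed at least 2-fold between the Rec-1 guides, at 2.72-fold and 2.16-fold with sgRNA 1 higher, where 3.88% of tested genes differed. The summed CDK4 and CDK6 level was between 9.44 and 15.9 times this INK4 sum, without CDKN2D, in the first 4 libraries. In Rec-1 sgRNA 1 and 2 it was 0.800 and 2.47 times the same sum.

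CDKN1B (chromosome 12, 12838432 to 12875303, plus strand) moved against CDKN2A. The Jeko control had 74.3 FPKM, with 71.6 and 101 in Jeko sgRNA 1 and 2 and 89.2 in the Rec-1 control. Rec-1 sgRNA 1 and 2 had 8.18 and 9.05 FPKM. GPR19 overlaps 10710 bases of CDKN1B on the other strand. The Jeko sgRNA mean of 86.3 ± 20.9 FPKM (SD, n = 2) was 10.02 times the Rec-1 sgRNA mean of 8.61 ± 0.620 FPKM (SD, n = 2), and the groups did not overlap. Per unit of summed CDK4 and CDK6, CDKN1B was between 0.2497 and 0.457 in the first 4 libraries and 0.0873 and 0.0765 in Rec-1 sgRNA 1 and 2.

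MTAP, which starts the recovery of methionine from the by-product of polyamine synthesis (chromosome 9, 21802635 to 21937650, plus strand), was expressed in every library. The Jeko control had 8.35 FPKM, with 9.97 and 9.66 in Jeko sgRNA 1 and 2. The Rec-1 control had 7.96 FPKM, and both Rec-1 guides were above all other libraries at 13.5 and 18.5. MTAP ends 30.1 kb from CDKN2A, so the libraries with CDKN2A near 0 carried transcripts of its closest coding neighbour on that side. The level of CDKN2A was 5.47 and 1.47 times that of MTAP in Rec-1 sgRNA 1 and 2 and at most 0.0196 times elsewhere.

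The wider CDKN2A locus was read from the 42 genes of the table within 3 Mb of it. Of these, 11 had a mean of at least 1 FPKM and 21 were listed at 0 in all 6 libraries, among them 14 of the 17 interferon genes and pseudogenes between FOCAD and MTAP. KLHL9, a ubiquitin ligase adaptor 632 kb from CDKN2A, was between 4.30 and 5.36 FPKM in the first 4 libraries and 9.30 and 8.17 in Rec-1 sgRNA 1 and 2. FOCAD, at 972 kb, was between 1.39 and 3.43 FPKM and then 7.29 and 9.31. PTPLAD2, at 936 kb and between those 2 genes, was at most 0.0366 FPKM in the first 4 libraries and 18.0 and 23.4 in Rec-1 sgRNA 1 and 2. RPS6, a ribosomal protein gene farther out, stayed between 6237 and 6917 FPKM in all 6. So genes on the telomeric side of CDKN2A were transcribed in all libraries, with transcripts of CDKN2A, CDKN2B and PTPLAD2 at or near 0 in the same 4. Transcript levels do not show whether DNA was deleted or silent. MLLT3, farther out on that side, was at most 0.0238 FPKM in these 4 and 1.66 and 1.69 in Rec-1 sgRNA 1 and 2. On the other side, CDKN2B and CDKN2B-AS1 were nearest, with the values above, and DMRTA1, the next coding gene, was at most 0.188 FPKM in any library.

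**Figure D3:**
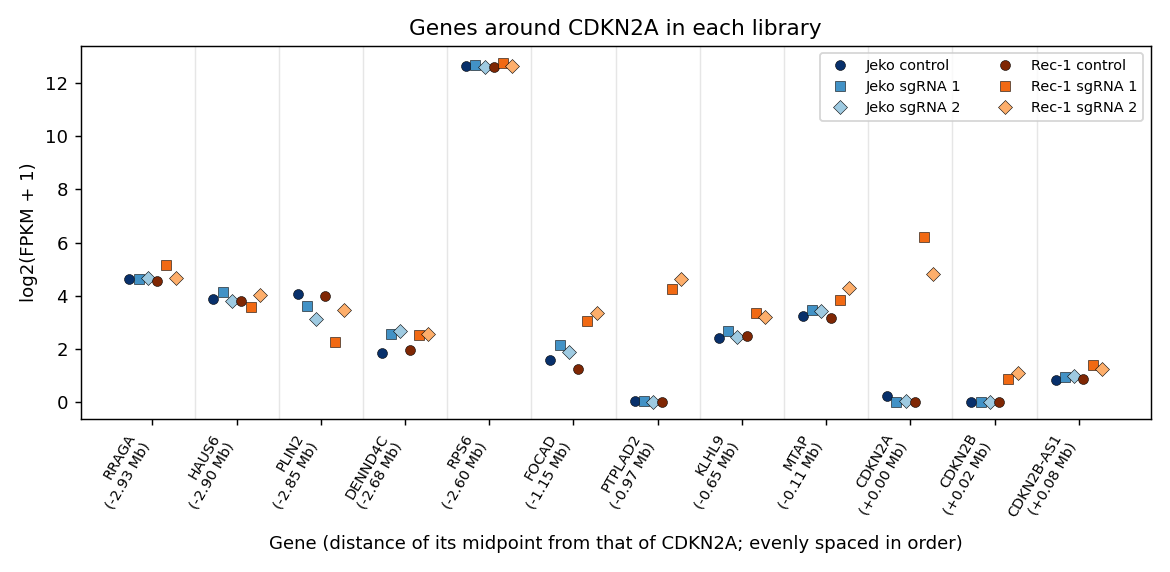
Genes around CDKN2A with a mean of at least 1 FPKM, and CDKN2B, in genome order, as log2(FPKM + 1) in each of the 6 libraries, with the distance of each midpoint from that of CDKN2A in Mb. SCARNA8, a small nucleolar RNA with a mean above 1 FPKM, is not drawn. MTAP, KLHL9 and FOCAD have values above 1 FPKM in every library, while CDKN2A, CDKN2B and PTPLAD2 are above 0.2 FPKM in the 2 orange Rec-1 sgRNA libraries alone.

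The genes nearest to CCND1 and CCND3 differed less between the sgRNA groups than these cyclins did, while PTCRA, farther from CCND3, differed as much as CCND3. Of 20 genes within 1 Mb of CCND1, 10 had a mean of at least 1 FPKM. ORAOV1, which overlaps the end of CCND1 on the other strand, lay from 4.83 to 9.03 FPKM over the Jeko libraries and the Rec-1 control, against 3.01 and 4.29 in Rec-1 sgRNA 1 and 2. TPCN2, a lysosomal channel gene 552 kb away, was between 6.49 and 12.05 FPKM and then 2.36 and 2.01, and FADD, a death receptor adaptor on the other side, was between 15.4 and 21.4 FPKM in all 6 libraries. By the mean difference between the sgRNA groups, 2 of the 10 were at least 2-fold lower in Rec-1 sgRNA and 1 was higher, against 12.8% lower and 13.6% higher among all tested genes. The lower genes were TPCN2 and CTTN. The groups overlapped at CTTN, with 2.42 and 15.2 FPKM in Jeko sgRNA 1 and 2 and 1.39 and 3.80 in Rec-1 sgRNA 1 and 2. MYEOV, another gene of this region, was at most 0.0203 FPKM. Around CCND3, TAF8, which lies 0.156 kb away, was between 4.65 and 5.23 FPKM in the first 4 libraries and 7.08 and 7.46 in Rec-1 sgRNA 1 and 2, and BYSL, 1.89 kb away on the other side, was between 15.2 and 30.6 FPKM with overlapping groups. Of 28 genes there with a mean of at least 1 FPKM, 4 were at least 2-fold higher in Rec-1 sgRNA and 0 lower. PTCRA, which encodes a chain of the pre-T-cell receptor and lies 866 kb away, was between 0.0505 and 0.439 FPKM in the first 4 libraries and 7.79 and 6.93 in Rec-1 sgRNA 1 and 2. Its log2 difference of 2.76 between the sgRNA groups compares with 2.60 for CCND3. Around CCND2, 4 of 7 such genes were at least 2-fold lower in Rec-1 sgRNA and 0 higher, among them RAD51AP1, a DNA repair gene.

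**Figure D4:**
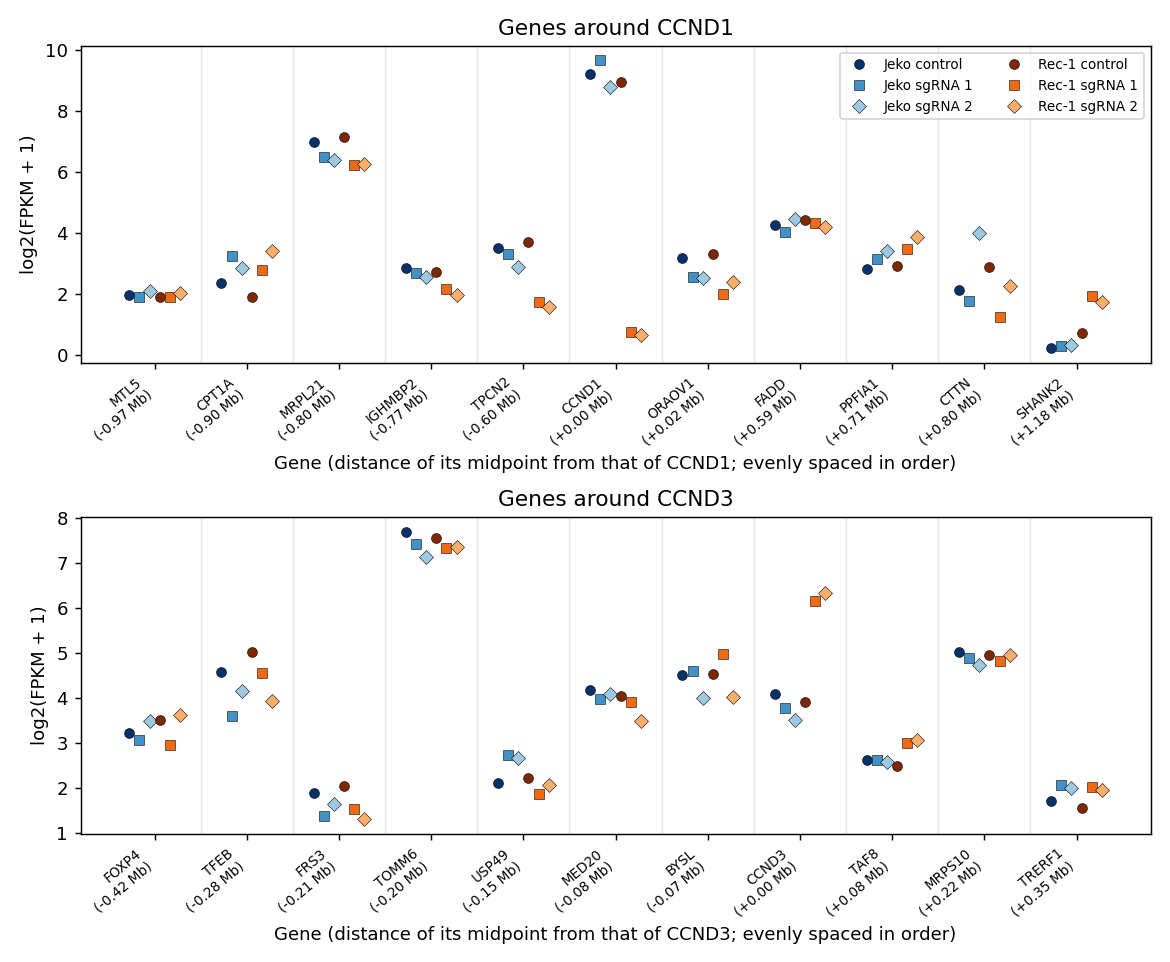
Genes within 1 Mb of CCND1 (top) and CCND3 (bottom) in genome order, as log2(FPKM + 1) in each of the 6 libraries, up to 10 protein-coding neighbours with a mean of at least 1 FPKM. At CCND1 and CCND3 the Rec-1 sgRNA points lie far from the other 4, while FADD stays between 15.4 and 21.4 FPKM.

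Genes with the most similar profile were found by the root-mean-square difference of log2(FPKM + 1), each gene centred on its mean, over the 6 libraries and 10330 protein-coding genes. For CCND1 these were VIM (0.383), SFRP5 (0.776) and EIF4EBP1 (0.947). VIM, the gene of the filament protein vimentin, lay from 264 to 426 FPKM over the Jeko libraries and the Rec-1 control, against 0.723 and 0.175 in Rec-1 sgRNA 1 and 2. For CDKN2A they were TUBB3 (0.159), MME (0.284) and ADSSL1 (0.289), of which MME, encoding the B-cell antigen CD10, was at most 0.0573 FPKM in the first 4 libraries and 57.2 and 40.3 in Rec-1 sgRNA 1 and 2. CCND2 is flat and near 0, and the nearest profiles, RPL5, PSPC1 and ATP6V1B2, are those of other flat genes.

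As counts, 0 of 10 members had both Jeko guides 2-fold or more above, or both 2-fold or more below, the control, against 3.04% of the 11400 tested genes (1.89% higher, 1.15% lower). From the Rec-1 control 6 of 10 did, against 23.3% of tested genes. CCND3, CDK6 and CDKN2A were the 3 higher, and CCND1, CDK4 and CDKN1B the 3 lower. The sgRNA libraries of the 2 lines did not overlap at 9 of 10 members, against 69.9% of tested genes. The members were chosen with these levels known, so nothing is read from these shares.

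The other genes of the G1/S pathway were taken as a list of 30, all of which passed the filter. In limma, a linear model with a spread shared across genes, no list gene passed an adjusted p of 0.05 for sgRNA against control over both lines, against 0.246% of tested genes (0.184% higher, 0.0614% lower). Unadjusted, 4 of the 30 had a limma p under 0.05, against 2410 of the 11400 tested genes. The lowest adjusted p of the list was 0.169. The list's median difference was −0.090, against 0.0079 over all tested genes. Without the Jeko control, which leaves the Rec-1 control as the only control, 2180 genes and 3 of the list passed (E2F1 and RBL1 lower, FBXW7 higher). Without the Rec-1 control, 51 genes and 0 of the list passed.

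Between the sgRNA libraries, 6 of the 30 passed limma's adjusted p of 0.05, 1 higher and 5 lower in Rec-1 sgRNA than in Jeko sgRNA. The share among all tested genes was 25.9%, with 12.8% higher and 13% lower, so 6 of 30 is near the background. The list's median difference was −0.33, against −0.031 over all genes. Of the E2F and DP genes 3 of 7 passed as lower, and of the pocket protein genes, whose products hold E2F in check, 2 of 3. RBL1, the gene of the pocket protein p107, was 11.3 and 10.995 FPKM in Jeko sgRNA 1 and 2 and 2.52 and 3.54 in Rec-1 sgRNA 1 and 2, a log2 difference of −1.60 (SE 0.20, limma adjusted p = 0.0120). RBL2, a second pocket protein gene, was 15.8 and 13.5 FPKM against 7.24 and 8.41 (limma adjusted p = 0.0435).

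The activating factors E2F1, E2F2 and E2F3 were the E2F genes that passed, all lower. E2F4 (−0.47) and TFDP1 (−0.34) were also lower, and E2F5 (0.68) and TFDP2 (0.89) higher, without passing. E2F2 was 26.9 and 23.4 FPKM in Jeko sgRNA and 7.78 and 10.3 in Rec-1 sgRNA, a log2 difference of −1.39 (SE 0.21, limma adjusted p = 0.0198). E2F3 differed by −1.30 and E2F1 by −1.15 (limma adjusted p = 0.0137 and 0.0343). E2F1 was also below the own control in all 4 sgRNA libraries, at 81.7 FPKM in the Jeko control with 47.5 and 40.2 for its guides, and at 52.6 in the Rec-1 control, with 16.6 and 21.997. FBXW7, a ubiquitin ligase subunit that marks cyclin E for destruction, was the 1 list gene that passed as higher. It was 8.32 and 8.33 FPKM in Jeko sgRNA and 14.4 and 14.3 in Rec-1 sgRNA (log2 difference 0.72, SE 0.15, limma adjusted p = 0.0384). These calls need all 4 sgRNA libraries. Leaving any 1 of them out puts 1 library in its group, and none of these calls held then.

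Within lines, 0 of the 30 list genes were at least 2-fold from the Jeko control in both guides, against 3.04% of tested genes. From the Rec-1 control 4 of the 30 were, against 23.3% of tested genes. Of these, E2F1 and CDKN1C, a further CIP/KIP inhibitor gene, were lower and TFDP2 and FBXW7 higher. CDKN1C was 45.8 FPKM in the Jeko control, 16.8 and 28.3 with the Jeko guides, against 45.7 in the Rec-1 control, 15.5 with its sgRNA 1 and 10.985 with its sgRNA 2. Each of these comparisons has 1 control library and no test.

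Beside MTAP, 11 genes of methionine salvage, polyamine synthesis and protein arginine methylation were examined. For sgRNA against control 0 of 11 passed limma's adjusted p of 0.05, against 0.246% of tested genes. That fit again gave both lines a shared sgRNA effect. Unadjusted, 1 of the 11 had a limma p under 0.05, against 2410 of the 11400 tested genes. Between the sgRNA groups 1 of 11 passed, against 25.9% of tested genes. This was WDR77, the partner subunit of the methyltransferase PRMT5 that is inhibited by the substrate of MTAP. WDR77 was 30.8 and 22.3 FPKM in Jeko sgRNA and 9.50 and 11.5 in Rec-1 sgRNA (log2 difference −1.25, SE 0.24, limma adjusted p = 0.0327). The median difference of the 11 was −0.51, against −0.031 over all tested genes.

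**Figure D5:**
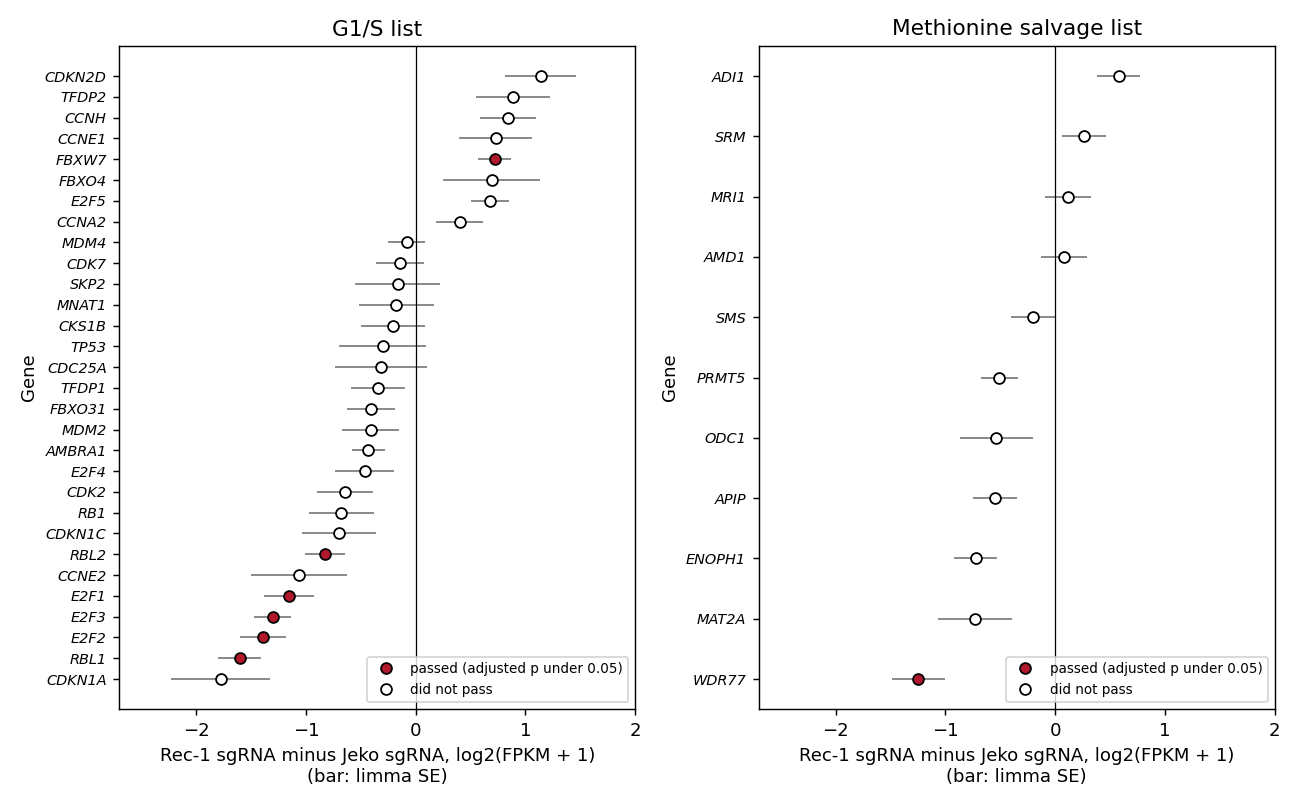
Difference between Rec-1 sgRNA and Jeko sgRNA on the log2(FPKM + 1) scale for the 30 G1/S genes (left) and the 11 methionine salvage genes (right), with limma's standard error as bars. Filled points passed an adjusted p of 0.05 over all tested genes, 6 of 30 on the left and 1 of 11 on the right.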

How the data were processed

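Libraries were made from total RNA with a TruSeq kit, per the labels' protocols. The authors deposited 1 table of FPKM values with a column per library, per the file headers. TopHat and hg19 are named in the submitters' processing notes with no role. The program that computed FPKM and the annotation are not given in the sources used here. Positions are from GENCODE on GRCh37, the same assembly as hg19, and 22934 of 25277 rows matched by current or older symbol.

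FPKM are not counts, so limma 3.58.1 in R 4.3.3 was fitted to log2(FPKM + 1), which understates changes of low genes, for the 11400 genes averaging 1 FPKM or more. Fits were sgRNA against control with line as covariate, and Rec-1 sgRNA against Jeko sgRNA with 4 groups. P-values were Benjamini-Hochberg adjusted over all tested genes. Python 3.11.15, numpy 2.4.6, pandas 2.3.3, statsmodels 0.14.6 and matplotlib 3.10.9 did the rest.

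Absolute depth is unknown. Among genes under 0.05 FPKM, the commonest ratio to the Jeko control gave relative depths of 0.872, 1.10, 1.10 and 0.687 for Jeko sgRNA 1 and 2, the Rec-1 control and Rec-1 sgRNA 2. It was shared by 0.712% of genes in Rec-1 sgRNA 1 and was not used there.

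Members and lists were chosen with earlier results of these data known. Named list genes passed a fit, or were 2-fold from control in both guides, with at most 12 and 8. Named neighbours had a mean of at least 1 FPKM, nearest first. MYEOV, PTCRA, MLLT3 and DMRTA1 were named after their values were seen. 1 B-cell marker of the chosen list is not reported here. Alternatives varied pseudocount, filter, scaling, length adjustment, gene type, guide block and libraries.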

Additional observations from a re-analysis of the deposited data

Results flagged for a closer look

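At 3 members with a mean of at least 1 FPKM, both Jeko guides lay below the Jeko control and both Rec-1 guides above the Rec-1 control. The difference between the lines was not tested. On the log2(FPKM + 1) scale it was 2.79 for CCND3 (−0.45 in Jeko, 2.34 in Rec-1), 5.71 for CDKN2A (−0.19 and 5.52) and 0.89 for CDKN2C (−0.27 and 0.62). The Jeko value of CDKN2A rests on values that stand as 4 fragments and 1, and the Rec-1 values include a control whose profile is near that of the Jeko control. The size for CDKN2A is set by the pseudocount: with 0.1 in place of 1 its values were −1.17 and 8.81. For CDKN2C the smaller guide differences were −0.028 in Jeko sgRNA 1 and 0.079 in Rec-1 sgRNA 2. The larger were −0.52 in Jeko sgRNA 2 and 1.15 in Rec-1 sgRNA 1, so each mean rests mainly on 1 guide.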

How the results depend on the processing

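The 3 differences of each member, which were sgRNA from control in each line and Rec-1 sgRNA from Jeko sgRNA, were recomputed 170 times over the alternatives. None of at least 1 on the log2 scale changed sign. The 8 sign changes were all in differences smaller than that, such as CDKN2C between the sgRNA groups (0.48, and −0.058 without Rec-1 sgRNA 1). In 27 the value moved by over 1 SD between guides, as with a pseudocount of 0.1 for CDK6 between the sgRNA groups (2.85 to 4.35). For sgRNA against control, 28 genes passed limma's adjusted p of 0.05, 12 with no filter on low values, 0 of the protein-coding genes alone (2327 at an unadjusted p under 0.05), 50 with the Jeko libraries alone, which was chosen after seeing the data, and from 11 to 2180 with 1 library left out. In the same fit 0 to 3 of the G1/S list passed with 1 library left out. Leaving out the Jeko control gave 2180 and 3.

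Adding a replicate block for guide number left 9 genes. No label says that same-numbered guides share a batch, and the correlation of their deviations in Jeko and Rec-1 was 0.0998 (all genes tested) or 0.208 (protein-coding genes). Between the sgRNA groups 2947 genes passed, 2643 with the block, 1549 of 8166 with a mean of at least 5 FPKM, and from 803 to 946 with 1 library left out, where 0 or 1 of the G1/S list did. With the block 5 of the list passed, with CDKN1A and CDKN2D in and E2F1, RBL2 and FBXW7 out. Genes at least 2-fold from the Jeko control in both guides numbered 346, 580 with a pseudocount of 0.1, and 705 and 853 for a single guide. From the Rec-1 control they numbered 2651, and 1698 with the filter at 5 FPKM. The cause of these changes was not tested, other than the smaller number of libraries or genes. Shares of CCND1 and CCND3 after length adjustment moved by less than the SD between guides. With no absolute depth, low values such as those of CCND2 and CDKN2A carry no interval.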
